A study of Sus scrofa with 12 samples.

Results

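The jejunum of weaned piglets whose sows were fed resveratrol (PW-Res) was compared with that of weaned piglets from control sows (PW-Con), at 28 days of age. The 6 libraries of these groups, 3 in each, were taken from the 12 libraries of the series by their labels, and no measured value was used to choose them. According to the sample records, the sows of both groups were bred with pooled semen of Landrace boars. Control sows received a corn and soybean meal diet, and the other sows the same diet with 300 mg/kg resveratrol from early gestation through lactation. Litters were cross-fostered within a diet, the sows were removed when the piglets were 21 days of age, and the piglets stayed in their pens for the 7 days before sampling. The piglets themselves were not given resveratrol after weaning as far as the records say, so the contrast is one of maternal diet. The study's own text covers only control litters and gives another breed and housing for them, and this difference could not be settled here. The records name 3 biological replicates a group, without the litter of each piglet.

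Resveratrol is a plant polyphenol. Its proposed targets include the deacetylase SIRT1, the energy sensor AMPK and the oxidative stress factor NRF2. At weaning milk is replaced by solid feed, and the small intestine of the piglet then goes through a phase of inflammation while lymphocytes settle in its epithelium and lamina propria. T cells and natural killer cells of the gut release granzymes and interferon gamma, and interferon gamma induces IRF1, guanylate-binding proteins and the chemokine CXCL9 in neighbouring cells.

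Expression was measured by sequencing of poly(A) RNA and given by the authors as FPKM, the density of fragments scaled to exon length and library size. Of the 41264 loci in the table, 13645 had a gene name and a mean of at least 0.5 FPKM over these 6 libraries and were tested. The most common ratio of low FPKM values between libraries put the sequencing depth of the other 5 libraries at 1.16 to 1.43 times that of PW-Con 1. Depth behind a single value is not given by FPKM. Pearson's r across loci was 0.928 to 0.942 between PW-Con libraries, 0.924 to 0.954 between PW-Res libraries and 0.907 to 0.937 between the groups. Loci are not independent replicates.

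The libraries differed in genes that mark the position along the small intestine. FABP6, the ileal bile acid binding protein, had 9621, 8791 and 6518 FPKM in PW-Con 1 to 3 and 24110.0, 1.70 and 4.81 FPKM in PW-Res 1 to 3. SLC10A2, the ileal bile acid transporter, had 58.9, 47.7 and 65.1 FPKM in PW-Con and 65.9, 6.69 and 2.64 FPKM in PW-Res. GATA4, a transcription factor of the duodenum and jejunum that is silent in the ileum, had 1.36, 2.51 and 1.41 FPKM in PW-Con and 0.718, 9.36 and 12.1 FPKM in PW-Res. PW-Res 1 thus had high ileal genes and low GATA4 as the 3 control libraries did, with FABP6 above and GATA4 below all of them, while PW-Res 2 and 3 had the opposite pattern. At 10 of the 12 distal genes tested PW-Res 1 was above all controls. FABP6 and SLC10A2 at these levels mark the ileum more than the jejunum named in the labels, so the label of these 4 libraries and their markers do not go together. A score from 8 distal and 9 proximal marker genes was 1.33, 1.34 and 1.78 in PW-Con, 1.26 in PW-Res 1, and -0.76 and -1.40 in PW-Res 2 and 3. The first principal component, with 29.8% of the variance, also set PW-Res 2 and 3 (37.7 and 40.6) apart from the other 4 libraries (-28.6 to -11.0). In bulk tissue, fewer cells of a type and less RNA per cell cannot be told apart. Results are therefore given with all 6 libraries and, where the difference bears on a result, without PW-Res 1, with PW-Res 1 alone against the controls, or with the score as a covariate. DIO1, S100G, CYBRD1, SLC40A1 and C10orf99, described below, are themselves marker genes of the score. Their values under the covariate may be shaped by their own part in it. SLC46A1, another proximal marker, is not part of the score. The part of gut position in a result was not tested otherwise.

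**Figure D1:**
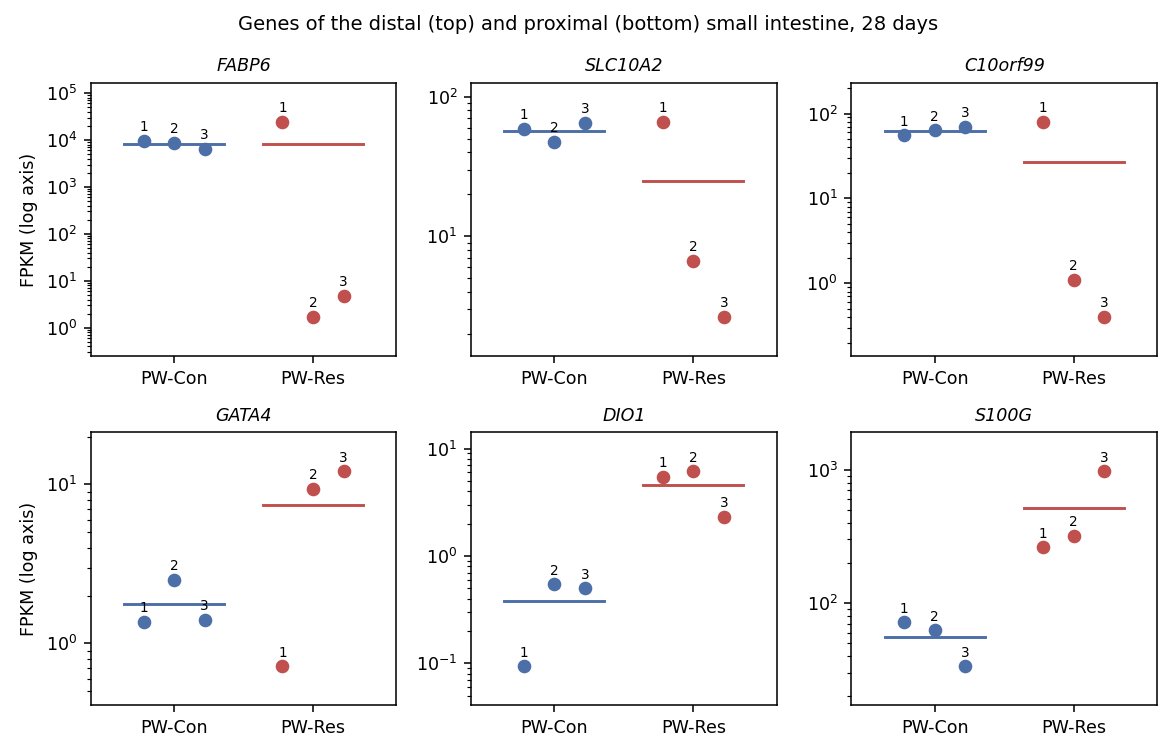
FPKM (log axis) of 3 genes of the distal and 3 of the proximal small intestine in each of the 6 libraries; points are numbered by replicate and bars are group means. FABP6, SLC10A2 and C10orf99 are low in PW-Res 2 and 3 alone, whereas DIO1 and S100G are higher in every PW-Res library than in every PW-Con library.

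At the study's standard (P under 0.05 without adjustment, and a size of the log2 fold change over 1), 261 of the 13645 loci differed, or 1.91%. Of these, 126 were higher (0.923%) and 135 lower (0.989%) in PW-Res piglets. Rescaling the libraries by median-of-ratios gave 150 higher and 106 lower, and quantile normalization 142 higher and 105 lower, so the balance of directions depends on the scaling. By P under 0.05 alone (limma, unadjusted), 480 loci were higher (3.52%) and 942 lower (6.90%). The median log2 fold change over all loci was -0.07, and 58.7% of loci had a negative one. Without PW-Res 1, 449 loci met the standard, and with PW-Res 1 alone against the controls 526 did, the lone library being assumed to vary like the controls. With the position score as a covariate in a model of all 12 libraries, 53 of the 126 and 71 of the 135 still met it. In that model 272 loci met it in all, 155 higher and 117 lower, so the balance of directions turned. Among the genes described below, ATP2B1, CYBRD1, SLC46A1, S100G, NR0B2, NR1H4, C10orf99, GCG, UBD, GALNT12, TFF2, GCLC, NR1I3, CREB3L3, GPAT3, APOE, LRAT, ISX, LEAP2, KHNYN, SFRP5, FCER1G, USP18, CXCL2 and FXYD1 missed it under the covariate. The groups did not overlap at 94 of the 126 and 112 of the 135, and over all loci at 5.38% in the higher and 12.1% in the lower direction. The verbs rose and fell are used below for loci that met the standard in the comparison of all 6 libraries.

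After Benjamini-Hochberg adjustment over all loci tested, 1 locus had an adjusted p under 0.05 in limma. It was a locus named CH242-51E15.1, a name taken from clone 51E15 of the genomic library CH242, with no function given. The locus was listed at 0, 0.0143 and 0 FPKM in PW-Con 1 to 3 and at 7.07, 5.01 and 4.74 FPKM in PW-Res 1 to 3. The difference was 2.70 on the log2 scale (standard error 0.19), with limma adjusted p = 0.0267. At 21 days the same locus ranged from 0 to 7.08 FPKM within resveratrol litters. All other calls rest on the unadjusted P. Of the 69 genes that met the standard and were named by a rule given with the processing, 12 met it in every alternative that was run for them. Among these 12 were ABHD4, CD72, CH242-51E15.1, CXCR4, ENSSSCG00000028137, FADD, GLYCTK, IRF1, NUGGC, PLA2G2D and RXRG. The minimum of 5 FPKM was run for only 82 of the 126 named genes, and loci with a lower mean have no result there.

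**Figure D2:**
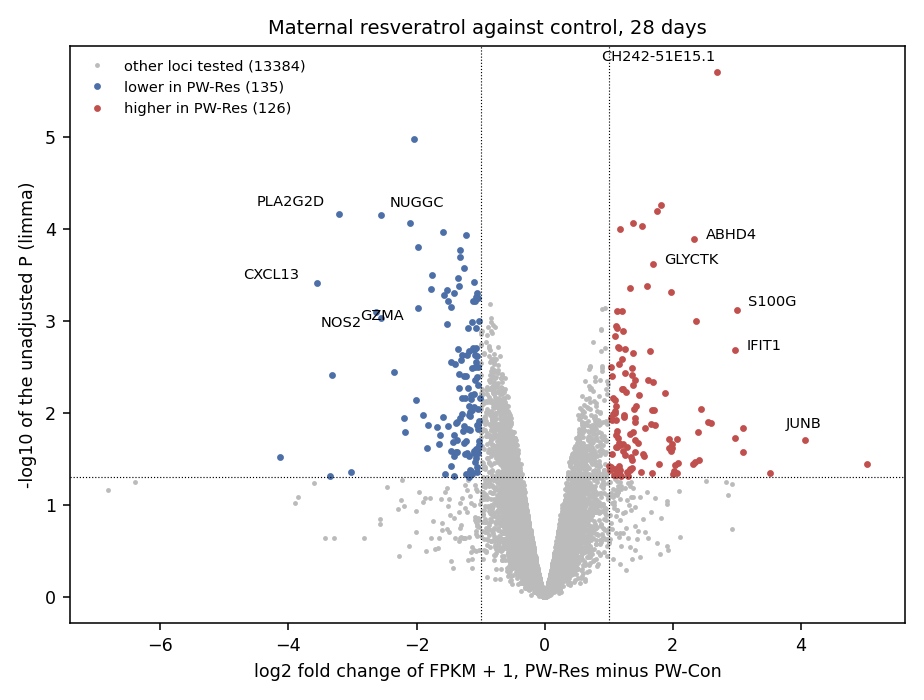
Log2 fold change of FPKM + 1 (PW-Res minus PW-Con) against -log10 of the unadjusted P from limma for the 13645 loci tested, 1 point a locus; dotted lines mark the standard. The 135 loci that fell include GZMA, NOS2 and CXCL13, and the 126 that rose include S100G and IFIT1.

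Genes of T cells and natural killer cells were mostly lower in PW-Res piglets. Of the 64 genes on this list, 54 were in the table and 48 were tested, and 45 of the 48 had a negative log2 fold change, against 58.7% of all loci. Among the tested members 19 had an unadjusted P under 0.05 with lower values and 8 fell at the standard, while no member was higher with P under 0.05 (against 6.90% of all loci lower and 3.52% higher). The median log2 fold change of the list was -0.66, against -0.07 over all loci. The summed FPKM of the list was 584, 677 and 599 in PW-Con and 397, 345 and 195 in PW-Res, so the groups did not overlap. Sums of several other lists did not overlap either, lower for B cells and MHC and higher for minerals and fatty acid oxidation. This held even for the sirtuin and AMPK list, of which no member met the standard. Its sums were 180.8, 175.5 and 176.1 in PW-Con and 181.3, 181.8 and 181.6 in PW-Res.

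GZMA, the granule protease granzyme A, had 59.3, 47.8 and 50.2 FPKM in PW-Con and 22.6, 10.5 and 8.23 FPKM in PW-Res, a log2 fold change of -1.97 (standard error 0.35, limma adjusted p = 0.238). GNLY, the granule peptide granulysin, had 96.4, 73.4 and 64.0 FPKM in PW-Con and 33.1, 26.2 and 6.71 FPKM in PW-Res (-2.01, standard error 0.54). Every control library was above every PW-Res library for both genes, and PW-Res 1 was the highest of its group. NKG7, another protein of cytotoxic granules, had 18.4, 24.3 and 29.1 FPKM in PW-Con and 10.9, 12.5 and 3.02 FPKM in PW-Res (-1.51). KLRK1, which encodes the activating receptor NKG2D, had 1.87, 4.27 and 4.63 FPKM in PW-Con and 1.26, 0.635 and 0.683 FPKM in PW-Res (-1.26). The homing receptor CCR7 also fell (-1.04), with 3.72, 7.48 and 3.52 FPKM in PW-Con and 1.32, 2.38 and 1.65 FPKM in PW-Res and no overlap between groups. The chemokine CCL4 (-1.07) and the receptor chain FCER1G (-1.03) fell too. GZMA occupies 4 loci in the table, and over their sum the log2 fold change was -1.72.

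Some members of this and other lists are named although the rule did not pick them, and these were chosen after their values were seen. IFNG, which encodes interferon gamma, had 1.03, 1.34 and 1.26 FPKM in PW-Con and 0.236, 0.277 and 0.0424 FPKM in PW-Res. Its log2 fold change of -0.90 (P under 0.05) missed the fold threshold, and the FPKM + 1 scale understates the change of so low a gene. The T cell receptor chain CD3G had 3.66, 3.96 and 3.64 FPKM in PW-Con and 2.56, 1.3 and 0.947 FPKM in PW-Res (-0.92, P under 0.05). CD3D had 8.01, 14.9 and 10.2 and 13.1, 2.99 and 1.59 FPKM in the same order, so that PW-Res 1 lay within the control range and P was above 0.05. CD3E was alike, with 28.8, 47.2 and 25.3 FPKM in PW-Con and 31.3, 16.5 and 9.06 FPKM in PW-Res (P above 0.05). CD8A and CD4, which mark the main T cell subsets, had log2 fold changes of -0.40 and -0.29 and overlapping groups.

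Without PW-Res 1, 25 of the 48 members had lower values with P under 0.05 (7.83% of all loci did in that fit) and the median was -0.70. With PW-Res 1 alone against the controls, 8 members did (3.52% of all loci) and the median was -0.44. With the position score as a covariate, 17 did (3.27%), and in the linear model of Ballgown with its library-size term, 5 did (3.82%). FCER1G (-0.96) missed the standard under that covariate. FCER1G and CCR7 also missed it without PW-Con 2 (-0.98 and -0.75) and without PW-Res 1 (-0.77 and -0.92), while GZMA and GNLY met it without any 1 of the 6 libraries.

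**Figure D3:**
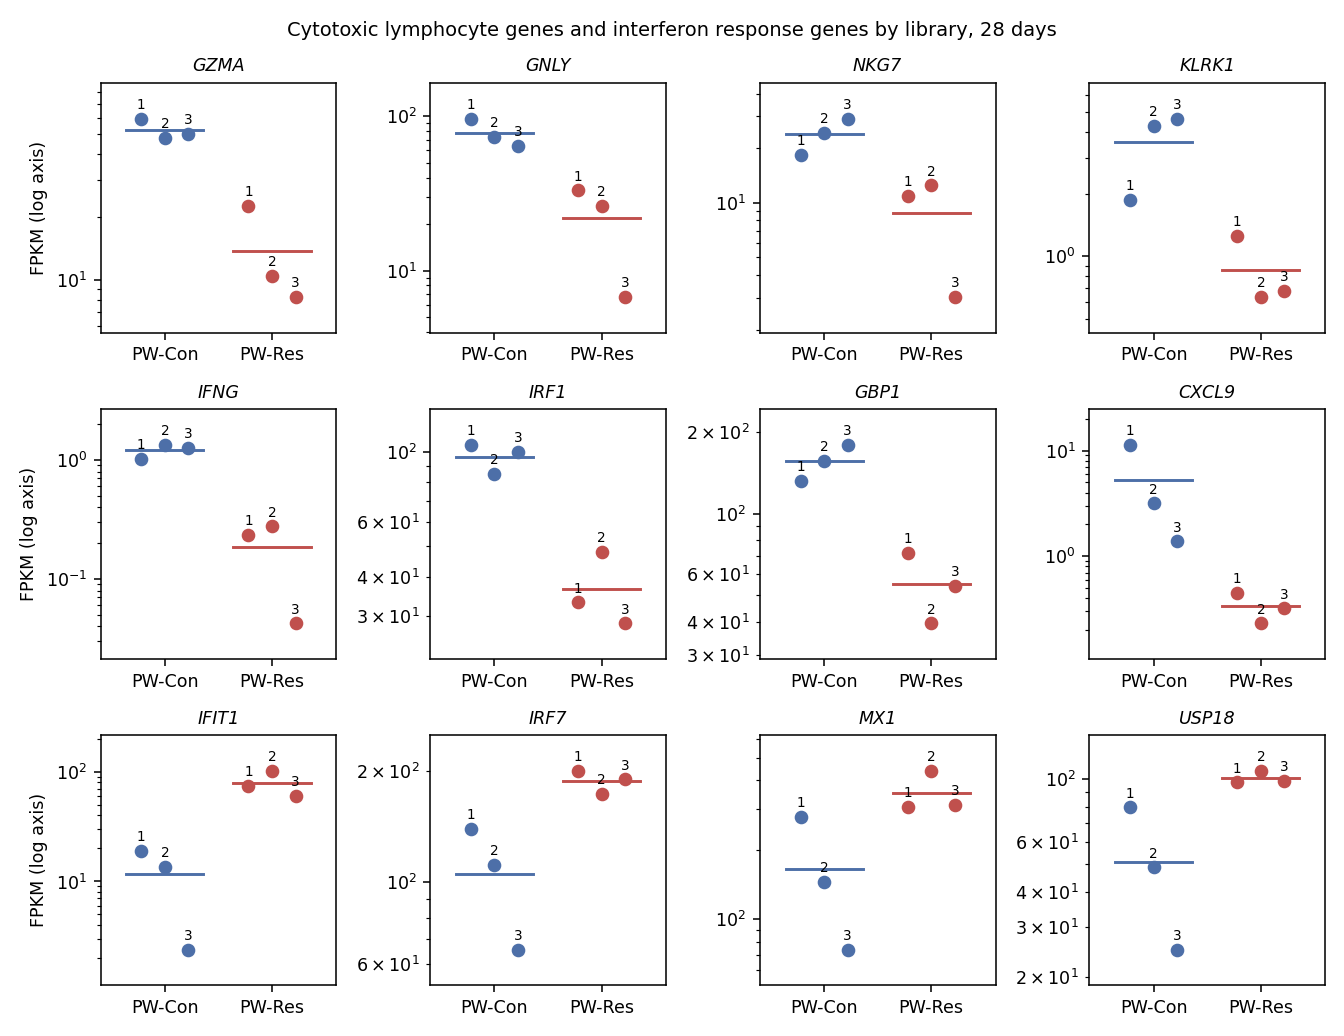
FPKM (log axis) by library of 4 cytotoxic lymphocyte genes, IFNG and 3 genes that interferon gamma induces, and 4 antiviral interferon response genes; points are numbered by replicate and bars are group means. The first 8 genes are lower, and IFIT1, IRF7, MX1 and USP18 higher, in every PW-Res library than in every PW-Con library.

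Interferon response genes moved in both directions. Of 55 members tested, 3 rose and 5 fell at the standard, and the median log2 fold change was 0.29. At P under 0.05, 6 had higher and 7 lower values (2 and 6 with the covariate). Over all loci 3.52% were higher and 6.90% lower, and with the covariate 2.50% and 3.27%. The higher count with the covariate was thus near the share of all loci. Those that fell were the transcription factor IRF1, the guanylate-binding protein GBP1, the tryptophan-degrading enzyme IDO1, the chemokine CXCL9 and the ubiquitin ligase DTX3L. IRF1 had 105, 85.0 and 99.8 FPKM in PW-Con and 33.2, 48.1 and 28.4 FPKM in PW-Res (-1.41, standard error 0.23, limma adjusted p = 0.226). GBP1 had 132, 156 and 179 FPKM in PW-Con and 71.8, 39.4 and 54.3 FPKM in PW-Res (-1.51, standard error 0.26). CXCL9 had 11.3, 3.16 and 1.38 FPKM in PW-Con and 0.451, 0.231 and 0.321 FPKM in PW-Res (-1.90). For these 3 genes no PW-Res library reached any control library, and for IRF1 the value of PW-Res 1 lay between those of PW-Res 2 and 3. IDO1 (-1.07) and DTX3L (-1.46) had separate groups too, although for DTX3L PW-Res 2 with 11.9 FPKM was just below PW-Con 3 with 12.2. IDO1 missed the standard without PW-Con 1 (-0.98) or PW-Res 2 (-0.90). The related chemokines CXCL10 (-0.93, P under 0.05) and CXCL11 (-0.95, P under 0.05) were lower without reaching the fold threshold.

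The members that rose were IFIT1, MX1 and USP18, genes of the antiviral response that type I and type III interferons induce. IFIT1 had 18.9, 13.5 and 2.39 FPKM in PW-Con and 74.9, 101 and 60.7 FPKM in PW-Res (2.98, standard error 0.63, limma adjusted p = 0.327). MX1 had 276, 145 and 73.8 FPKM in PW-Con and 305, 437 and 312 FPKM in PW-Res (1.26). USP18 had 79.6, 48.7 and 24.9 FPKM in PW-Con and 97.4, 107 and 98.6 FPKM in PW-Res (1.12). PW-Con 3 was the lowest library for all 3 genes, and the control libraries varied more than the PW-Res libraries. IRF7 (0.89), UBE2L6 (0.77) and DHX58 (0.75) also had higher values with P under 0.05. USP18 missed the standard without PW-Con 2, PW-Con 3, PW-Res 2 or PW-Res 3 (0.69 to 1.16), and MX1 had P above 0.05 without PW-Con 2.

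B cell and lymphoid follicle genes were lower as well, and here 1 control library stood apart. Of 29 members tested, 4 fell, 7 had lower values with P under 0.05 and none higher ones, and the median log2 fold change was -0.57. Over all loci 0.989% fell, and 6.90% were lower and 3.52% higher with P under 0.05. CXCL13, the chemokine that draws B cells into follicles, had 28.5, 24.6 and 6.14 FPKM in PW-Con and 1.25, 0.0710 and 0.385 FPKM in PW-Res (-3.55, standard error 0.56, limma adjusted p = 0.226). CD72, a B cell receptor inhibitor, had 7.85, 8.93 and 5.34 FPKM in PW-Con and 2.29, 2.01 and 2.37 FPKM in PW-Res (-1.35, limma adjusted p = 0.226). The plasma cell receptor TNFRSF17 (-1.15) and the B cell lectin CD22 (-1.24) also fell. PW-Con 2 had by far the most follicular B cell RNA. MS4A1, which encodes CD20, had 0.115, 8.10 and 0.0977 FPKM in PW-Con and 0.0852, 0.0802 and 0.0462 FPKM in PW-Res, and CR2, which encodes the complement receptor of B cells, had 0.131, 18.7 and 0.231 FPKM in PW-Con and 0.0255, 0.0398 and 0.0724 FPKM in PW-Res. With the position covariate 6 members had lower values with P under 0.05 (3.27% of all loci). Without PW-Con 2 the median of the list was -0.23 and 6 members had lower values with P under 0.05 (6.40% of all loci). CXCL13 (-3.28) and CD72 (-1.22) then still fell, and CD22 (-0.70) and TNFRSF17 (-0.98) missed the standard. Without PW-Res 1 these 2 genes missed it as well (-1.19 and -0.86). NUGGC, a nuclear GTPase of germinal centre B cells, had 21.1, 24.9 and 13.4 FPKM in PW-Con and 1.93, 1.84 and 3.94 FPKM in PW-Res (-2.55, limma adjusted p = 0.131), and -2.37 without PW-Con 2. CD79A and MZB1, which plasma cells also express, had log2 fold changes of -0.06 and -0.02 with P above 0.05.

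Cytokine and chemokine genes fell where they changed. Of 55 members tested, 4 fell and 11 had lower values with P under 0.05. No member was higher with P under 0.05, and the median was -0.33. With the covariate 8 were lower with P under 0.05. Over all loci 0.989% fell, and 6.90% were lower with P under 0.05 (3.27% with the covariate). Beside CXCL13 the members that fell were the receptor CXCR4 and the neutrophil chemokines CXCL8 and CXCL2. CXCR4 had 9.58, 13.3 and 13.3 FPKM in PW-Con and 4.35, 3.84 and 4.34 FPKM in PW-Res (-1.32, standard error 0.18, limma adjusted p = 0.152), with each group closely spaced. CXCL8 had 19.1, 6.88 and 15.9 FPKM in PW-Con and 4.28, 3.69 and 6.97 FPKM in PW-Res (-1.25), so that PW-Con 2 lay just below PW-Res 3. TNF (-0.95, P under 0.05), IL10 (-0.65, P under 0.05) and IL21R (-0.78, P under 0.05) were lower with no overlap between groups but missed the fold threshold. CXCL8 missed the standard without PW-Con 1 (-0.99) or PW-Res 2 (-1.10), and CXCL2 did in 5 of the 6 fits that left out 1 library. In the MHC and antigen presentation list, 6 of 29 members had lower values with P under 0.05 and none higher ones, and with the covariate 2 had lower and 1 a higher one. SLA-DQB1, a chain of the pig MHC class II, was the member that fell, with 358, 489 and 261 FPKM in PW-Con and 211, 173 and 116 FPKM in PW-Res (-1.14). In the myeloid list 5 of 29 members had lower values with P under 0.05, BATF3 (-0.99) and AIF1 (-0.67) having the lowest P, and none met the standard (3 lower with the covariate). Among pattern receptors 2 of 24 members had lower values with P under 0.05, a share near the 6.90% of all loci. TMEM173, which encodes the DNA-sensing adaptor STING, had 6.39, 6.14 and 6.03 FPKM in PW-Con and 3.20, 3.67 and 3.50 FPKM in PW-Res (-0.69).

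NOS2 and PLA2G2D fell most among the antimicrobial and inflammatory enzymes. NOS2, the inducible nitric oxide synthase, had 40.6, 74.8 and 50.3 FPKM in PW-Con and 17.5, 5.16 and 4.87 FPKM in PW-Res (-2.64, standard error 0.47, limma adjusted p = 0.238). PLA2G2D, a secreted phospholipase A2, had 32.5, 36.7 and 32.0 FPKM in PW-Con and 1.87, 1.51 and 6.17 FPKM in PW-Res (-3.22, standard error 0.39, limma adjusted p = 0.131). For PLA2G2D the control values were close to each other and no PW-Res library came near them. The lectin REG4 rose, with 35, 30.6 and 55.4 FPKM in PW-Con and 59.9, 121 and 156 FPKM in PW-Res (1.39). In all, 1 of 19 members of this list rose and 3 fell (0.923% and 0.989% of all loci). The third that fell was C10orf99, an antimicrobial peptide of the distal gut, which had 55.3, 63.2 and 69.4 FPKM in PW-Con and 79.4, 1.09 and 0.401 FPKM in PW-Res. Its fall rests on PW-Res 2 and 3, the libraries with low distal markers, and with the score as a covariate its log2 fold change was -0.16 (P above 0.05). C10orf99 is itself a distal marker, so a score of such markers can remove its change by construction. UBD, an interferon-induced ubiquitin-like protein, was likewise 60.4, 71.7 and 89.3 FPKM in PW-Con and 54.3, 8.58 and 7.05 FPKM in PW-Res (-2.19), with PW-Res 1 just below the controls, and with the covariate it was -1.29 (P above 0.05). In the Ballgown model the directions of UBD (0.05) and C10orf99 (1.31) reversed, and that of C10orf99 also did with PW-Res 1 alone (0.34).

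**Figure D4:**
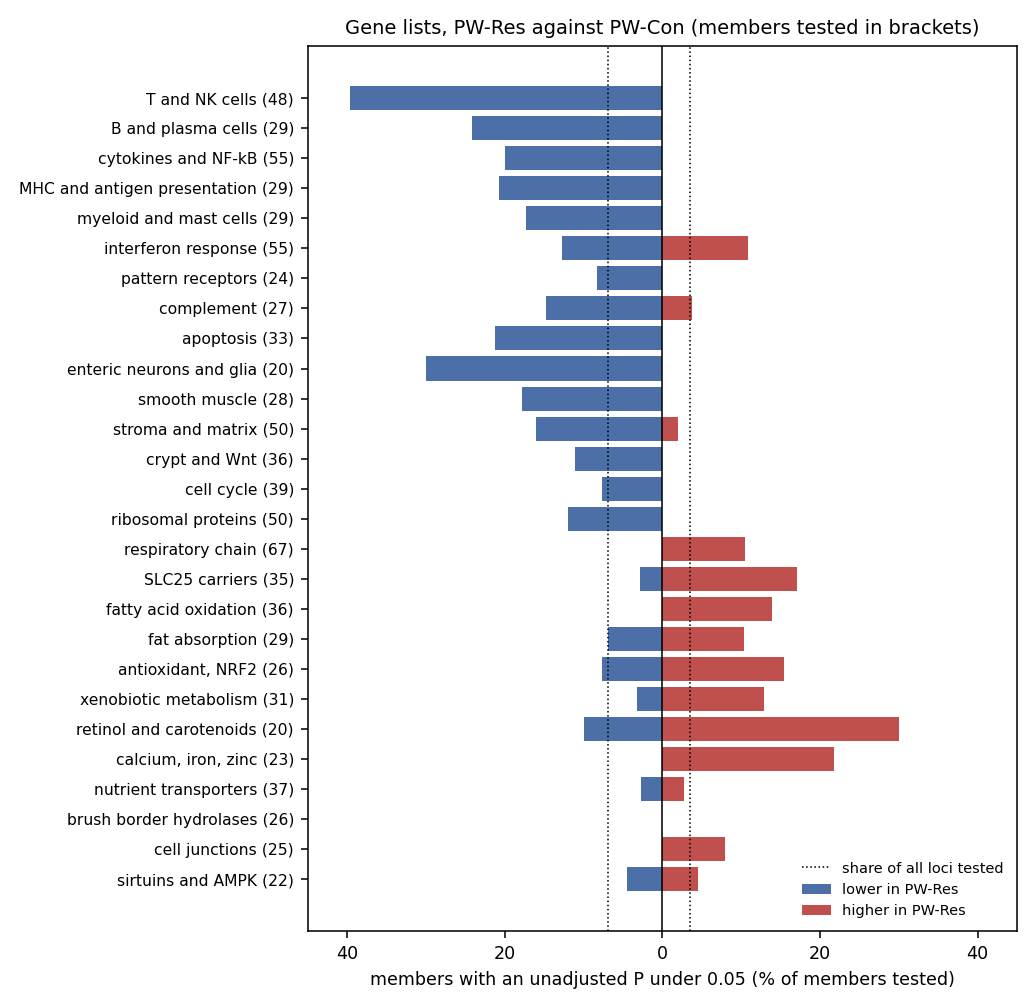
Share of the tested members of 27 gene lists with an unadjusted P under 0.05 in limma, in % of members tested, to the left for lower and to the right for higher values in PW-Res; dotted lines give the shares over all 13645 loci (6.90% lower and 3.52% higher). The T and NK cell list has 19 of 48 members on the lower side and none on the higher side, and the list for calcium, iron and zinc 5 of 23 on the higher side and none on the lower.

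Several genes for the uptake of calcium and iron were higher in PW-Res piglets. Of 23 members of the mineral list, 3 rose, 5 had higher values with P under 0.05 and none lower ones, and the median log2 fold change was 0.19. Over all loci 0.923% rose, and 3.52% were higher and 6.90% lower with P under 0.05. With the covariate 3 members were higher with P under 0.05 (2.50% of all loci). Without PW-Res 1, 3 members were higher and 1 lower with P under 0.05 (4.65% and 7.83% of all loci), and the median was 0.06. With PW-Res 1 alone the median was 0.55. S100G encodes calbindin D9k, the calcium carrier of the enterocyte cytosol and a target of the vitamin D receptor. S100G had 71.6, 62.4 and 33.6 FPKM in PW-Con and 262, 317 and 972 FPKM in PW-Res (3.00, standard error 0.53, limma adjusted p = 0.238). All PW-Res libraries were above all controls, and PW-Res 1 was at 262 FPKM. With PW-Res 1 alone against the controls the log2 fold change of S100G was 2.28 (P under 0.05). With the position score as a covariate the log2 fold change of S100G was 1.11 (P above 0.05), that of ATP2B1 0.19 (P above 0.05) and that of CYBRD1 2.04 (P above 0.05). VDR was then at -0.08, with the sign turned, and the iron exporter SLC40A1 at 0.10, both with P above 0.05. S100G, CYBRD1 and SLC40A1 are marker genes of the score, so it can remove their change by construction. SLC46A1 is a proximal marker too but is not part of the score. ATP2B1, the calcium pump of the basolateral membrane, had 6.99, 3.29 and 5.19 FPKM in PW-Con and 10.8, 9.39 and 21.8 FPKM in PW-Res (1.24). VDR, the vitamin D receptor, had 43.7, 52.2 and 54.2 FPKM in PW-Con and 70.4, 68.1 and 71.0 FPKM in PW-Res (0.48, P under 0.05). TRPV6, the apical calcium channel, was not separated, with 0.631, 2.13 and 0.450 FPKM in PW-Con and 2.35, 1.26 and 17.2 FPKM in PW-Res (P above 0.05). On the iron side the ferric reductase CYBRD1 had 15.6, 3.09 and 7.73 FPKM in PW-Con and 74.2, 14.5 and 28.1 FPKM in PW-Res (1.94), where PW-Con 1 and PW-Res 2 overlapped. CYBRD1 missed the standard without PW-Con 2 (1.43), PW-Con 3 (1.97) or PW-Res 1 (1.34), and ATP2B1 without PW-Res 3 (0.89). SLC40A1 had a log2 fold change of 0.78 (P under 0.05), and the folate carrier SLC46A1 rose from 2.11, 4.34 and 2.92 to 18.8, 12.0 and 6.16 FPKM (1.61, and 1.02 with the covariate, P above 0.05).

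S100G, CYBRD1, SLC46A1 and DIO1 are also on the list of proximal small intestine genes, of which 4 of 13 rose and none fell (median 1.14). DIO1, which activates thyroid hormone, had 0.0936, 0.542 and 0.497 FPKM in PW-Con and 5.43, 6.14 and 2.31 FPKM in PW-Res (1.97, limma adjusted p = 0.226). These 4 genes were higher in PW-Res 1 than in every control. DIO1 met the standard under the covariate (1.53), but it is such a marker itself, so this value decides nothing on position. Of the 12 distal genes tested, 1 fell and none rose (median -0.45). Over all loci 0.923% rose and 0.989% fell. Without PW-Res 1, 8 of the 12 had lower and 7 of the 13 higher values with P under 0.05 (7.83% and 4.65% of all loci).

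Retinol and lipid genes changed at single steps. In the retinol list 2 of 20 members rose and 1 fell, and 6 had higher and 2 lower values with P under 0.05 (1 each with the covariate). The retinal reductase DHRS3 was lower, with 33.8, 41.6 and 35 FPKM in PW-Con and 21.4, 25.7 and 23.6 FPKM in PW-Res (-0.62, P under 0.05), short of the fold threshold. LRAT, which esterifies retinol for storage and chylomicrons, had 1.99, 1.35 and 0.768 FPKM in PW-Con and 4.19, 3.43 and 4.86 FPKM in PW-Res (1.15). RXRG, a retinoid X receptor, had 4.74, 4.93 and 3.64 FPKM in PW-Con and 16.4, 10.1 and 9.59 FPKM in PW-Res (1.23, limma adjusted p = 0.273). ISX, the repressor through which retinoic acid limits carotenoid uptake, was listed at 2.01, 1.06 and 0.858 FPKM in PW-Con and at 0.00140, 0.249 and 0 FPKM in PW-Res (-1.07). LRAT missed the standard without PW-Con 3 (0.95) and ISX without PW-Con 1 (-0.86). In fatty acid oxidation 5 of 36 members had higher values with P under 0.05 and none lower ones (2 higher with the covariate), and the median was 0.27. HADH, an enzyme of mitochondrial beta-oxidation, had 95.5, 145 and 131 FPKM in PW-Con and 167, 201 and 209 FPKM in PW-Res (0.64). CREB3L3, a transcription factor of lipid metabolism, rose (1.19), but PW-Res 1 had 119.6 FPKM, within the controls at 126, 97.5 and 73.7 FPKM. Leaving out PW-Con 2 or 3 or PW-Res 2 or 3 made CREB3L3 miss the standard (0.91 to 1.19). PPARG, the lipid-sensing nuclear receptor, had 4.93, 1.27 and 2.56 FPKM in PW-Con and 4.97, 11.6 and 11.2 FPKM in PW-Res (1.42), and there too PW-Res 1 was next to PW-Con 1. In fat absorption GPAT3, an enzyme of glyceride synthesis, rose (1.04) and APOE fell (-1.02). There 3 of 29 members had higher and 2 lower values with P under 0.05 (0 and 1 with the covariate), and the lower share was that of all loci. For all lists of this paragraph the shares over all loci were 3.52% higher and 6.90% lower (2.50% and 3.27% with the covariate). Without PW-Con 2 APOE was at -0.66 and without PW-Con 1 GPAT3 was at 0.99, both short of the standard.

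Genes of oxidative metabolism and detoxification that passed the test were mainly higher, more of them passing without PW-Res 1 and fewer with the position score as a covariate. In the respiratory chain list 7 of 67 members had higher values with P under 0.05 and none lower ones (median 0.22). Without PW-Res 1 this was 19 (4.65% of all loci were higher in that fit), whereas PW-Res 1 alone had a median of -0.07 against the controls. With the covariate 2 members were higher with P under 0.05 and the median was -0.01, and 2.50% of all loci were higher. NDUFA6, a subunit of complex I, had 14.3, 15.9 and 12.7 FPKM in PW-Con and 20.6, 23.7 and 32.0 FPKM in PW-Res (0.77), and SDHB of complex II had 152, 185 and 154 and 195, 281 and 238 FPKM (0.53). Only NDUFB11 rose at the standard (1.35), and PW-Con 3 with 81.5 FPKM lay within the PW-Res range. In the antioxidant list GCLC, the rate-limiting enzyme of glutathione synthesis, rose with 8.29, 6.49 and 4.49 FPKM in PW-Con and 8.64, 19.7 and 29.8 FPKM in PW-Res (1.34). GCLC missed the standard without PW-Con 3, PW-Res 2 or PW-Res 3 (0.96 to 1.25) and with the covariate (0.66). Catalase (CAT) had 42.5, 56.3 and 37.3 FPKM in PW-Con and 60.3, 78.0 and 103 FPKM in PW-Res (0.80, P under 0.05). In all, 4 of 26 members had higher and 2 lower values with P under 0.05 (2 and 0 with the covariate). The lower share was near that of all loci. For all lists of this paragraph the shares over all loci were 3.52% higher and 6.90% lower (2.50% and 3.27% with the covariate). In xenobiotic metabolism the glucuronosyltransferase UGT2A3 (2.59) and the receptor NR1I3 (1.2) rose and FMO1 (-1.04) fell among 31 members, of which 4 had higher values with P under 0.05 (2 with the covariate). UGT2A3 had 10.2, 16.7 and 3.74 FPKM in PW-Con and 16.9, 104 and 109 FPKM in PW-Res, so that the rise was mainly in PW-Res 2 and 3. FMO1 missed the standard in 4 of the 6 fits that left out 1 library, and NR1I3 without PW-Con 3 or PW-Res 3. Mitochondrial SLC25 carriers had 6 of 35 members higher with P under 0.05 and 1 lower (1 and 0 with the covariate), among them the adenine nucleotide carrier SLC25A4 (0.90) and the citrate carrier SLC25A1 (0.56).

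The genes named here as proposed targets of resveratrol did not meet the standard in the comparison of all 6 libraries. GCLC of the antioxidant list, given above, did meet it (1.34). In the list of sirtuins, AMPK subunits and related genes, none of 22 members met it, with 1 higher and 1 lower at P under 0.05 and a median of -0.03. SIRT1 had 0.931, 0.934 and 0.598 FPKM in PW-Con and 0.713, 0.454 and 0.880 FPKM in PW-Res, with a log2 fold change of -0.12 (95% interval -0.56 to 0.33). PRKAA1, a catalytic subunit of AMPK, had 0.630, 1.83 and 2.96 FPKM in PW-Con and 2.75, 3.57 and 2.69 FPKM in PW-Res (0.60, 95% interval -0.17 to 1.37), and it met the standard with the position score as a covariate (1.10, P under 0.05). PPARGC1B, a coactivator of mitochondrial genes, met it without PW-Res 1 (1.12) but was at 0.57 with all 6 libraries. The loci of PRKAA2 had a mean below 0.5 FPKM and were not tested. NFE2L2, which encodes NRF2, had 16.0, 13.3 and 16.5 FPKM in PW-Con and 12.8, 20.6 and 31.2 FPKM in PW-Res (0.39, 95% interval -0.34 to 1.12). NQO1, a target gene of NRF2, had 3.53, 2.93 and 3.38 FPKM in PW-Con and 2.73, 10.7 and 28.4 FPKM in PW-Res (1.35, 95% interval -0.22 to 2.92). For NQO1 the high values were in PW-Res 2 and 3 only, and without PW-Res 1 the log2 fold change was 2.12 (P under 0.05). CYP1A1, induced through the aryl hydrocarbon receptor, varied within both groups, with 17.3, 36.3 and 0.795 FPKM in PW-Con and 15.2, 18.8 and 0.337 FPKM in PW-Res (95% interval -3.75 to 2.74). A P above the threshold does not show that these genes were unaffected, and the intervals allow changes above 1 for several of them.

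Digestion and bile acid genes depended on whether PW-Res 1 was in the comparison. With all 6 libraries no member of 26 brush border hydrolases and none of 37 nutrient transporters other than SLC46A1 met the standard, with medians of 0.15 and 0.20. Without PW-Res 1, 5 hydrolases met it with lower and 2 with higher values (1.78% and 1.51% of all loci did) and the median of the hydrolases was -0.15, whereas it was 0.88 with PW-Res 1 alone and 0.66 with the covariate, under which 4 had higher values with P under 0.05. MEP1A, a subunit of the brush border protease meprin, had 77.3, 167 and 48.9 FPKM in PW-Con and 332, 15.5 and 10.2 FPKM in PW-Res, so that PW-Res 1 was the highest library and PW-Res 2 and 3 the lowest. Of the transporters, 2 met the standard with lower values without PW-Res 1, the glutamate carrier SLC1A1 (-2.19) and the sulphate carrier SLC13A1 (-1.48). Of 11 bile acid genes 1 rose and 1 fell with all libraries, while 4 met the standard with lower values without PW-Res 1, FABP6 (-11.02) and SLC10A2 (-3.45) among them. ANPEP, aminopeptidase N, had the lowest P of the hydrolases, above 0.05, with 1831, 2257 and 1822 FPKM in PW-Con and 1656, 1021 and 331 FPKM in PW-Res. NR1H4, the bile acid receptor FXR, fell (-1.63) with 41.2, 22.9 and 33.0 FPKM in PW-Con and 24.1, 5.69 and 5.88 FPKM in PW-Res, and with the score as a covariate it was -0.23 (P above 0.05). Its direction reversed in the Ballgown model (0.05), as did that of GCG (0.06) and of GALNT12 (0.14), described next. NR0B2, a repressor that FXR induces, rose, with 4.94, 6.43 and 1.36 FPKM in PW-Con and 15.6, 15.3 and 12.0 FPKM in PW-Res (1.69), and was at 0.93 with the covariate (P above 0.05). GCG, which encodes proglucagon and is highest in the distal gut, fell (-1.42), with 136, 109.8 and 148 FPKM in PW-Con and 106, 31.0 and 33.8 FPKM in PW-Res. With the score as a covariate its direction was reversed (0.82, P above 0.05). The goblet cell enzyme GALNT12 (-1.84) fell and the trefoil peptide TFF2 (1.54) rose, each with PW-Res 1 among the controls. GALNT12, GCG, NR1H4 and TFF2 each missed the standard in 3 or 4 of the 6 fits that left out 1 library.

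Several of the largest changes lay outside these lists. ABHD4, a lipase of N-acyl phospholipids, had 5.50, 8.45 and 4.0 FPKM in PW-Con and 23.8, 34.4 and 44.3 FPKM in PW-Res (2.34, standard error 0.31). GLYCTK, glycerate kinase, had 5.96, 6.66 and 8.89 FPKM in PW-Con and 32.8, 25.2 and 18.8 FPKM in PW-Res (1.69), and it was the one member of 33 of the glucose metabolism list that rose. LEAP2, a liver and gut peptide that opposes ghrelin, rose too, with 13.4, 25.5 and 2.92 FPKM in PW-Con and 54.6, 41.1 and 35 FPKM in PW-Res (1.94), and missed the standard without PW-Res 1 (1.77, P above 0.05). FGFBP1, a carrier of fibroblast growth factors, had 126, 32.9 and 20.0 FPKM in PW-Con and 6.66, 7.11 and 14.1 FPKM in PW-Res (-2.20).

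Several other large values rest on loci listed at 0, which in such a table can be failed estimates. The early response factor JUNB was listed at 0, 38.8 and 0 FPKM in PW-Con and 55.0, 74.4 and 43.4 FPKM in PW-Res, and UBE2B at 19.4, 0 and 0 and 26.0, 20.4 and 21.1 FPKM. TRMT12 (0, 5.13 and 0 against 5.61, 6.44 and 6.73 FPKM) and KHNYN (0, 0.110 and 3.01 against 3.40, 4.30 and 6.04 FPKM) were similar, and for KHNYN the sum of its loci reversed the direction (-0.08). FADD, the adaptor of death receptors, was listed at 1.97, 4.78 and 3.56 FPKM in PW-Con and at 0 in all 3 PW-Res libraries, and at 0 in 3 of the 6 libraries at 21 days. ANO9 was listed at 5.07, 9.29 and 8.89 FPKM in PW-Con and 0, 0 and 2.05 FPKM in PW-Res, and FBXO34, which had no 0, at 8.68, 0.982 and 6.13 and 0.0114, 0.0138 and 0.0105 FPKM. Of the loci called, 25 of the 126 higher and 13 of the 135 lower were listed at 0 in at least 1 of the 6 libraries.

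Crypt, stromal, muscle and nerve genes had negative medians (-0.20, -0.11, -0.21 and -0.38). The stromal median was close to the -0.07 of all loci, and it was 0.05 with the position covariate and 0.10 with PW-Res 1 alone. The muscle median was -0.47 without PW-Res 1 and 0.00 with PW-Res 1 alone. In the crypt and Wnt list 31 of 36 members had a negative log2 fold change (58.7% of all loci), 4 with P under 0.05 (2 with the covariate), and CD44 and SFRP5 fell. CD44, an adhesion receptor of crypt cells and lymphocytes, had 8.88, 10.2 and 14.0 FPKM in PW-Con and 3.36, 4.83 and 5.41 FPKM in PW-Res (-1.12, limma adjusted p = 0.327). In the cell cycle list 3 of 39 members had lower values with P under 0.05, a share near the 6.90% of all loci. TOP2A, the topoisomerase of dividing cells, was the member that fell there, with 18.2, 16.4 and 24.3 FPKM in PW-Con and 8.72, 7.94 and 8.66 FPKM in PW-Res (-1.11, limma adjusted p = 0.23). In the stroma and matrix list 8 of 50 members had lower values with P under 0.05 and 1 a higher one, and GREM1, a bone morphogenetic protein antagonist, fell (-1.04). CD44 missed the standard without PW-Con 3 (-0.95) or PW-Res 1 (-0.96), TOP2A without PW-Con 3 (-0.95) and SFRP5 without PW-Con 2 (-1.43). Smooth muscle genes had 5 of 28 members lower with P under 0.05, and enteric neuron and glia genes 6 of 20, and none of these met the standard. With the position covariate these counts were 0 of 28 and 0 of 20, and that of the stroma list was 1 of 50. Summed FPKM of the muscle list was 661, 962 and 806 in PW-Con and 941, 710 and 323 in PW-Res, so that the groups overlapped.

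The same maternal diets were compared in other piglets at 21 days, before weaning (W-Res against W-Con, 3 libraries each, none shared with the 28-day groups). The study describes, for its control litters, 1 piglet of each litter at each age, so libraries of the 2 ages may share sows and litters. The records do not link them, and the ages were treated as independent. There 539 loci met the standard (3.95% of those tested). Of the 135 loci that fell at 28 days, 88 had a negative log2 fold change at 21 days and 20 met the standard in the same direction. Of the 126 that rose, 69 were positive and 5 met it. Over all loci with a value at both ages, 3659 of the 7996 that were lower at 28 days were also lower at 21 days, and 3088 of the 5633 that were higher were also higher.

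The T cell and natural killer cell genes were mostly lower at 21 days too. Of the 48 members, 22 had lower values with P under 0.05 at 21 days and 3 higher ones, where this held for 4.97% and 7.92% of all loci, and 11 were lower with P under 0.05 at both ages, against 72 of all 13645 loci. GZMA had 139, 69.3 and 60.8 FPKM in W-Con and 6.78, 12.7 and 29.4 FPKM in W-Res (-2.52, P under 0.05). GNLY had 103, 55.0 and 123 FPKM in W-Con and 18.5, 8.67 and 11.6 FPKM in W-Res (-2.75, P under 0.05). Both genes were thus lower in every resveratrol library than in every control library of the same age, at each of the 2 ages. NOS2 had 65.2, 57.3 and 78.0 FPKM in W-Con and 4.32, 3.10 and 26.7 FPKM in W-Res (-2.99), and GBP1 320.5, 240.5 and 437 and 45.5, 63.4 and 129.5 FPKM (-2.15). CXCL13 (-0.20), CD72 (-0.30) and CXCR4 (-0.02) had P above 0.3 at 21 days, as did IFIT1 (1.02) and S100G (-0.97).

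Genes of the muscle wall and nerves differed between the 21-day groups as well. In W-Res piglets 16 of 28 smooth muscle genes, 7 of 20 neuron and glia genes and 7 of 50 stroma genes had higher values with P under 0.05, and 0, 1 and 2 of them lower ones. Their medians were 1.56, 0.67 and 0.69, against 0.05 over all loci. At 28 days these lists had the negative medians given above, and their part in the values at 21 days and in the differences between ages was not tested.

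**Figure D5:**
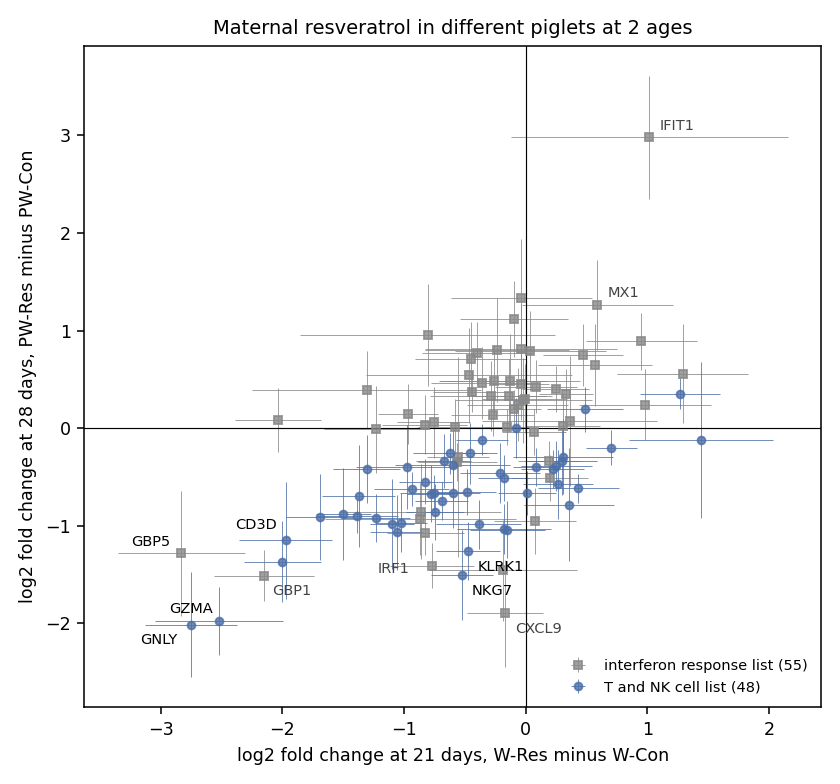
Log2 fold change of resveratrol against control litters at 21 days (horizontal) and at 28 days (vertical), with standard errors as bars, for the tested members of the T and NK cell list (48) and of the interferon response list (55). GZMA, GNLY and GBP1 lie low at both ages, while NKG7, KLRK1, CXCL9 and IFIT1 lie farther from 0 at 28 days.

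The difference between the ages was itself tested as an interaction over all 12 libraries. Of 14332 loci, 992 met the standard (6.92%), 284 with a more positive and 708 with a more negative effect at 28 days. With median-of-ratios scaling the split was 418 and 516, and with quantile normalization 427 and 477. In limma 1888 loci had an unadjusted P under 0.05 and none an adjusted p under 0.05. For GZMA the interaction was 0.55 (limma adjusted p = 0.766) and for NOS2 0.35 (limma adjusted p = 0.895), so that no difference between the ages was detected for these genes. For CXCL13 it was -3.35 (limma adjusted p = 0.26), for CXCR4 -1.3 (limma adjusted p = 0.261) and for S100G 3.97 (limma adjusted p = 0.321). All 3 genes had P under 0.05 before adjustment. The lowest interaction P among loci called at 28 days belonged to 5 loci. FXYD1, a regulator of the sodium pump, fell at 28 days (-1.04) and was higher at 21 days (1.57), with an interaction of -2.61 (limma adjusted p = 0.26). ANO9 and CD44 also fell at 28 days and had positive log2 fold changes at 21 days (0.68 and 0.52), with interactions of -3.24 and -1.64. A locus known only by the identifier ENSSSCG00000013842 rose, with 46.5, 67.8 and 63.4 FPKM in PW-Con and 139, 119 and 132 FPKM in PW-Res, against 126, 121 and 94.2 and 75.8, 19.3 and 44.3 FPKM at 21 days (interaction 2.60). The last was ENSSSCG00000028137, likewise without a symbol, which rose at 28 days (1.75) and had an interaction of 2.62 (limma adjusted p = 0.26). At 21 days too the position score varied within groups, from -2.72 to 0.88 in W-Con and from -1.72 to 0.70 in W-Res, and its part in these values was not tested.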

How the data were processed

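The authors deposited FPKM per locus and library from StringTie and Ballgown. The study's methods name TopHat as the aligner, whereas the submitters' processing notes list HISAT2 2.0, Bowtie 0.12.2 and StringTie 1.3.0 with the builds Sscrofa10.2 and mm8, without a role for each. Counts per locus were not used here, so the depth behind each value is unknown. A low-input locus has a coarse FPKM, and rows for the same gene at separate loci may split its reads.

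From the deposited FPKM, log2(FPKM + 1) was computed here for the 13645 named loci whose mean reached 0.5 FPKM, and fitted with limma 3.58.1 in R 4.3.3 (PW-Res minus PW-Con, empirical Bayes with a mean trend), with Benjamini-Hochberg adjustment. The log2(FPKM + 1) scale understates changes of low genes. The steps were tested on simulated data. Ensembl identifiers were given symbols through a RefSeq-based reference table for 2967 of 8154 loci. Groups were read from the sample labels.

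Genes were named by this rule. It took loci with an adjusted p under 0.05, the 12 largest rises and 12 largest falls with a symbol, separate groups and a mean of at least 1 FPKM, up to 6 members that met the standard in a list (or the 2 members with the lowest P where fewer than 2 met it), 8 proposed targets of resveratrol, and the 5 lowest interaction P. Members and lists were chosen with earlier results of these data known. The alternatives were another pseudocount (0.1), other filters (none or 5 FPKM), 2 scalings, no trend, a replicate block, the Ballgown model, all 12 libraries, summed loci and each library left out. The position covariate and PW-Res 1 alone were added after the data were seen. Results for some genes are not reported here.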

Additional observations from a re-analysis of the deposited data

How the results depend on the processing

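FPKM carry no depth, and groups of 3 piglets limit what can be detected. Of 261 loci that met the standard, the count was 133 with a minimum of 5 FPKM (fewer loci tested), 574 with a pseudocount of 0.1 and 526 with PW-Res 1 alone; leaving out 1 library gave 246 to 449, the highest without PW-Res 1. The count with an adjusted p under 0.05 from limma (1) became 0 with no filter, a minimum of 5 FPKM, all 12 libraries, the position covariate, PW-Res 1 alone and the Ballgown model, and 0 to 12 when 1 library was left out, 12 without PW-Res 1, 4 without PW-Con 2 and 0 without PW-Con 3. At an unadjusted P under 0.05 the fits without an adjusted call had 586 (minimum of 5 FPKM) to 1806 loci (no filter). The 19 members of the T and NK cell list became 5 in the Ballgown model, 8 with PW-Res 1 alone and 9 with a minimum of 5 FPKM, and 14 to 25 when 1 library was left out. The interaction count of 992 was 856 to 1128 when 1 of the 6 libraries of the 28-day groups was left out; no 21-day library was left out. The causes were not tested.

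No pairing of the libraries by replicate number was detected. Same-numbered deviations from the group means correlated at 0.01, -0.03 and 0.08, and other-numbered ones at -0.141 to 0.135. So few values cannot show that pairing was absent. With the replicate as a block 293 loci met the standard, 0 had an adjusted p under 0.05, 21 T and NK cell members were lower with P under 0.05, and the interaction count was 1051. Of the 69 named genes that met the standard, CXCL2 missed it under the block.

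Directions reversed for KHNYN over its summed loci (-0.0795), for UBD (0.0471), NR1H4 (0.0533), GALNT12 (0.14), C10orf99 (1.31) and GCG (0.0605) in the Ballgown model, for C10orf99 with PW-Res 1 alone (0.34) and for GCG with the position covariate (0.82). No other of the 126 named genes changed direction while called. Beside these reversals, and with the direction kept, 46 of the 69 missed the standard in the Ballgown model, 35 with PW-Res 1 alone, 29 with the covariate, 13 with all 12 libraries, 7 with quantile normalization, 6 with median-of-ratios and 3 with summed loci. Leaving out 1 library cost 11 to 24 of them, 24 without PW-Con 3.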

Other observations

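With all 6 libraries, further gene groups had few members that met the standard. Of 27 complement and coagulation genes, 4 had lower values with P under 0.05 and 1, the receptor C5AR1, rose (1.17), which missed the standard without PW-Res 1 (1.22, P above 0.05). C4A (-0.84) and C5 (-0.87) were among the lower members. Of 33 apoptosis genes, 7 had lower values with P under 0.05, among them FAS (-0.84) and its ligand FASLG (-0.68), and none higher ones. Of 29 immediate early genes, 7 had lower values with P under 0.05. The phosphatase DUSP2 (-1.18) and the survival factor IER3 (-1.22) fell, and JUNB, described above with its zeros, rose. DUSP2 had 3.67, 8.27 and 9.52 FPKM in PW-Con and 2.31, 3.30 and 1.75 FPKM in PW-Res. IER3 had 3.96, 2.58 and 8.83 FPKM in PW-Con and 2.47, 0.919 and 1.06 FPKM in PW-Res. Among 50 ribosomal protein genes, 6 had lower values with P under 0.05 (-0.84 for RPL21 to -0.61 for RPL39) and none met the standard, with a median of -0.02. With the position score as a covariate the lower members with P under 0.05 were 2 of the complement, 3 of the apoptosis, 4 of the immediate early and 4 of the ribosomal protein genes, where 3.27% of all loci were lower. For 2 lists of structure, 2 of 25 cell junction genes were higher with P under 0.05, DSP (0.81) and CTNNB1 (0.53). At that P 1 of 14 endothelial genes was lower, PROX1 (-0.50), a share near the 6.90% of all loci.

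Among 31 ion and water transport genes, 4 had higher values with P under 0.05 and none lower ones (3.52% and 6.90% of all loci). The water channel AQP10 rose (1.11). Without PW-Res 1, 6 of these genes were lower and 4 higher with P under 0.05 (7.83% and 4.65% of all loci). The median went from -0.08 to -0.22, against 0.56 with PW-Res 1 alone. AQP10 had 0.369, 1.45 and 0.403 FPKM in PW-Con and 1.58, 3.23 and 3.32 FPKM in PW-Res, and it missed the standard in 4 of the 6 fits that left out 1 library. Among 33 amino acid and urea cycle genes, 3 had lower values with P under 0.05, of which IDO1 fell. That share was near the 6.90% of all loci. Without PW-Res 1, 4 members met the standard with lower values (1.78% of all loci did). Among them was ASS1, an enzyme of arginine synthesis (-2.99, against -1.87 with all 6 libraries). Among 31 epithelial transcription factors, 3 had higher and 2 lower values with P under 0.05, and PPARG and CREB3L3 rose. Over all loci 3.52% were higher and 6.90% lower, so the lower share was near that of all loci. The list of 14 lipogenic genes had PPARG as its 1 member past the test, and the list of 16 glucocorticoid and thyroid genes had DIO1, beside ANXA1 (-0.57), which was lower. In the enteroendocrine list 2 of 20 were lower with P under 0.05 (6.90% of all loci), GCG and SCG5 (-0.83). Without PW-Res 1, 3 members met the standard with lower values, among them NTS (-3.10), and 3 with higher values, among them CCK (1.34). Of all loci 1.78% and 1.51% did in that fit. Of 33 cholesterol genes MYLIP (0.58) was higher and SOAT1 (-0.54) lower with P under 0.05. Of 48 heat shock and endoplasmic reticulum stress genes DNAJB1 (0.44) was higher and PDIA3 (-0.54) lower at that P. These shares were not above the 3.52% and 6.90% of all loci. Of 23 genes of milk uptake in the suckling gut, MANBA (-0.47) and PRDM1 (-0.74) were lower with P under 0.05, a share near the 6.90% of all loci. Of 13 DNA methylation genes MBD2 (-0.40) and HELLS (-0.45) were lower at that P. None of 17 clock genes had P under 0.05. Of 5 pancreatic genes tested, 4 had a positive log2 fold change, and only CLPS was higher with P under 0.05 (0.63). CLPS had 0.262, 0.455 and 0.122 FPKM in PW-Con and 0.687, 0.705 and 1.67 FPKM in PW-Res.

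The mitochondrially encoded ND6, a subunit of complex I, had 30.6, 52.8 and 40.8 FPKM in PW-Con and 7.51, 12.9 and 8.93 FPKM in PW-Res (-1.97). Other mitochondrial loci were unstable between libraries of 1 group in this table. COX1 ranged from 0 in PW-Res 2 to 7445 FPKM in PW-Con 3, and COX2 was listed at 0 in all libraries but PW-Con 3, where it had 1240.1 FPKM.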
